A study of Caenorhabditis briggsae with 16 samples.

Results

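The let-7 family of *C. briggsae* was followed through 16 hours of larval development. The 8 rows of the deposited count table whose names begin with Cbr-Let-7- were taken, out of 372 rows for mature miRNA arms. They come from 4 hairpins, P5 to P8 in the MirGeneDB naming, each with a 5p arm and a 3p arm that carries the asterisk of a passenger strand. Wild-type animals of the strain AF16 were synchronized as L1 larvae, plated without further treatment at 2000 worms per plate, grown at 25°C and harvested every hour from 18 to 33 h, which gives 1 small RNA library of whole animals per hour and no replicates. In bulk RNA of whole animals, more cells that express a miRNA and more miRNA per cell cannot be told apart.

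A miRNA hairpin is cut by Dicer to a duplex, of which the guide strand is loaded into Argonaute and kept, while the passenger strand is mostly lost. The passenger level is therefore often used as a readout of production. In *C. elegans*, let-7 is a heterochronic miRNA that controls the change from larval to adult cell fates by repressing lin-41, and its relatives mir-48, mir-84 and mir-241 act earlier through hbl-1. LIN-28 blocks the processing of the let-7 precursor in young larvae. Which of P5 to P8 corresponds to which *C. elegans* gene is not given in the sources used here, so the hairpins are called by their MirGeneDB names.

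The libraries held 9588599 to 15866144 counts, and the Let-7 arms 99 to 616781 counts each. All 8 arms passed the filter of at least 10 counts in at least 8 libraries, as did 311 of the 372 arms. Levels are normalized counts: each count was taken as a share of its library and brought to the mean library size. A count here is a read that starts at the 5′ end of an arm, which does not depend on the length of the RNA, but the ligation of adapters can favour 1 sequence over another and was not tested. The 95% intervals given for counts are exact and hold only the counting error. No other row stayed within 0.1 (log2) of a Let-7 arm in every library, so none of the 8 repeats another row.

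The 5p arms of the family differed in level by about 2 orders of magnitude. Cbr-Let-7-P8_5p was the most abundant, with 343994 normalized counts at its lowest (18 h), a median of 435355 and 490375 at its highest (24 h). Cbr-Let-7-P5_5p had a median of 133516 and ranged between 12328 (18 h) and 180206 (27 h), and Cbr-Let-7-P7_5p had a median of 32477 and ranged between 23963 (33 h) and 39338 (26 h). Cbr-Let-7-P6_5p was the least abundant, with a median of 2822 and a range of 1626 (18 h) to 3155 (28 h). These hours depended on the scaling. With median-of-ratios size factors in place of the library total, P8, P5 and P6 were highest at 31, 29 and 30 h. P7 was then lowest at 21 h, and its highest hour and the other lowest hours were the same. The ranges of P8, P7 and P6 did not overlap. P5 overlapped P7 only, since it stood below P7 at 18 h (12328 against 32522) and above it from 19 h on (33811 against 29782). By mean level, P8_5p, P5_5p, P7_5p and P6_5p were number 10, 17, 53 and 126 of the 372 arms. Together the 5p arms took 3.13% of all counts at 18 h and 5.34% at 28 h, and the share of P5 among them went from 3.16% at 18 h to 28.7% at 27 h while that of P8 went from 88.1% to 65.1%.

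**Figure D1:**
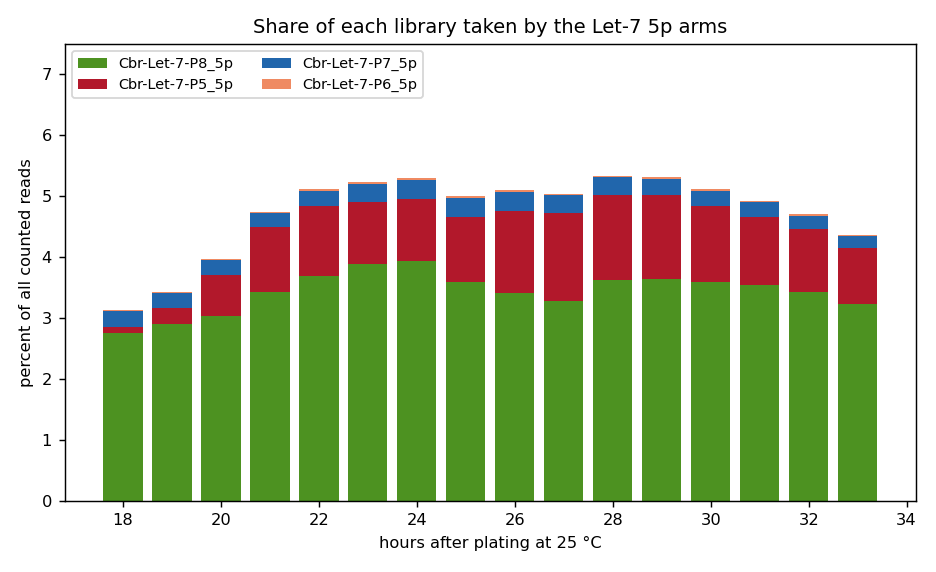
Stacked bars give the percent of all counted reads in each hourly library (y axis) taken by the 5p arms of the 4 Let-7 hairpins, by hours after plating (x axis). The total was 3.13% at 18 h and 5.34% at 28 h, P8 and P5 make up most of it, and P6, at 0.51% of the family or less, is barely visible.

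Cbr-Let-7-P5_5p came up within the course. In the libraries of 18 to 22 h it had 12328, 33811, 82167, 133818 and 143145 normalized counts, an 11.6-fold difference (95% interval 11.4 to 11.8). It then stood nearly level, with 126490, 128160 and 133213 in the next 3 libraries. A further, smaller step led to 167987 (26 h) and 180206 (27 h), 1.35-fold above the 25 h library (95% interval 1.34 to 1.36). Each of the 6 following libraries was lower than the one before, with 175280, 171048, 156691, 139206, 130670 and 115226, the last being 63.9% of the highest value. With median-of-ratios size factors in place of the library total, both steps and the level stretch between them were also seen, and the highest value, at 29 h, was followed by 72.4% of it at 33 h. Taking the mean of 30 to 33 h as the late level (135448 ± 17293, SD over 4 hours), P5 stood at 9.1% of it at 18 h and reached 50% of it at 19.7 h. P6, P7 and P8 stood at 55.6%, 117% and 80% of their late level at 18 h, so their onset, measured in this way, lay before the course. With median-of-ratios size factors they stood at 46.1%, 97.2% and 66.3%, and P6 reached 50% within the course, at 18.2 h.

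The passenger strand of P5 came and went in 2 waves, whereas its guide rose during each and did not return to its 18 h level. In the libraries of 18 to 23 h Cbr-Let-7-P5_3p* had 986, 5138, 8723, 7346, 1786 and 793 normalized counts. The next wave held 1368, 4187, 6530, 4851, 2041 and 849 in the libraries of 24 to 29 h, and the last 4 libraries had 276, 193, 138 and 114. The top of the first wave, in the 20 h library, lay 11-fold above the trough at 23 h (95% interval 10.3 to 11.8). The top of the other wave, in the 26 h library, lay 8.23-fold above the trough (95% interval 7.69 to 8.82) and 57.1-fold above the 33 h library (95% interval 46.8 to 70.3), which held 99 counts of this arm. Its largest hourly gain, of 2.37 on the log2 scale from 18 to 19 h, and its largest hourly loss, of -2.04 from 21 to 22 h, were each number 2 among the 254 arms averaging 100 counts or more.

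**Figure D2:**
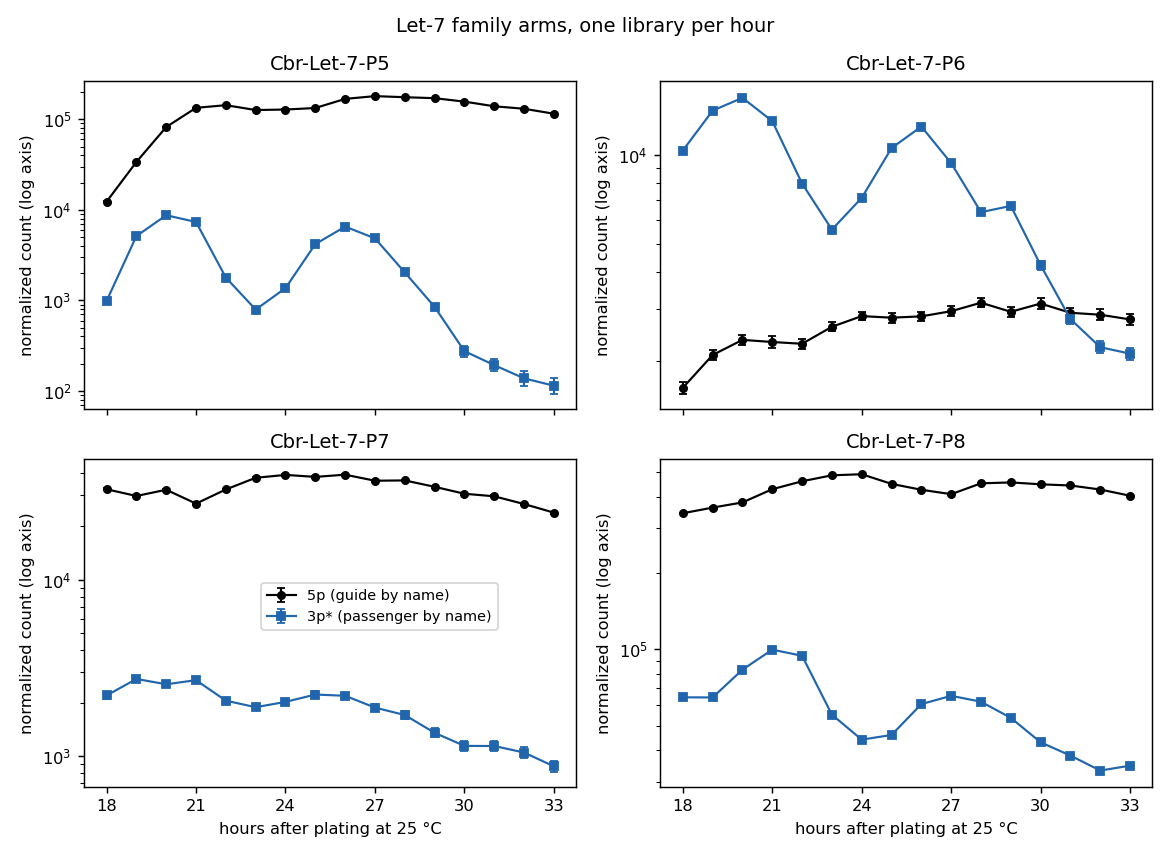
Normalized counts (y axis, log scale) of the 5p arm (black circles) and the 3p arm with the asterisk (blue squares) of each Let-7 hairpin by hours after plating (x axis), 1 library per hour, with exact Poisson 95% intervals that are mostly smaller than the points. The passengers of P5 and P6 peak at 20 and 26 h and that of P8 at 21 and 27 h, P5_5p goes up in 2 steps, and the arms of P6 cross at about 31 h.

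The passengers of P6 and P8 had the same number of waves, and that of P8 peaked 1 h later. Peaks were taken as local highs with a prominence of at least 0.5 (log2). Cbr-Let-7-P6_3p* had 15559 normalized counts at its first peak (20 h), 5576 in the trough (23 h) and 12437 at the other peak (26 h), and ended with 2121. Cbr-Let-7-P8_3p* had 99619 (21 h), 43974 (24 h) and 65486 (27 h) at the same points, and its lowest value was 33210 (32 h). From 20 to 21 h P8_3p* was 1.2-fold higher (95% interval 1.19 to 1.21), whereas P5_3p* and P6_3p* were 1.19-fold (95% interval 1.15 to 1.23) and 1.2-fold lower (95% interval 1.17 to 1.23). From 26 to 27 h P8_3p* was 1.08-fold higher (95% interval 1.07 to 1.09), and P5_3p* and P6_3p* were 1.35-fold (95% interval 1.29 to 1.4) and 1.33-fold lower (95% interval 1.29 to 1.37). All of these peak and trough hours were the same with median-of-ratios size factors. The distance between the peaks was 6 h in each of the 3 arms. Cbr-Let-7-P7_3p* had no peak of this prominence and ranged between 2726 (19 h) and 870 (33 h), with 1885 in the 23 h library and 2224 in the 25 h library. The peak-to-trough contrast thus differed between the paralogues, with 11-fold for P5 and 2.79-fold for P6 (20 against 23 h; 95% interval 2.71 to 2.87 for P6) and 2.27-fold for P8 (21 against 24 h, 95% interval 2.24 to 2.29).

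The arm with the asterisk was the more abundant one for P6 through most of the course, against the name of the row. At 18, 19, 20 and 21 h Cbr-Let-7-P6_3p* had 11279, 17902, 17768 and 10483 counts and Cbr-Let-7-P6_5p 1777, 2669, 2697 and 1877, that is 5.58 to 6.71 counts of the 3p arm for each count of the 5p arm. The 3p arm still exceeded the 5p arm at 30 h (ratio 1.35, 95% interval 1.28 to 1.42). At 31 h they could not be told apart (2372 against 2493 counts, ratio 0.952, 95% interval 0.899 to 1.01), and at 32 h and 33 h the 5p arm was the more abundant one, at 1.29 and 1.31 counts for each count of the 3p arm (95% intervals 1.21 to 1.37 and 1.23 to 1.39). Over the 16 hours the normalized count of P6_3p* averaged 8149 and that of P6_5p 2659. Between 18 and 33 h the normalized count of the 5p arm differed by a factor of 1.70 and that of the 3p arm by a factor of 4.87. Among the 120 hairpins with both arms tested (rows named -v1 and -v2 taken once), 9 (7.5%) had libraries on both sides of an equal ratio beyond counting error, P6 among them. Exactly 1 arm carries an asterisk in 107 of the 120, and in 4 of these, P6 included, that arm had the higher mean count. This comparison was chosen after the P6 values had been seen.

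The ratio of the 5p arm to the 3p arm was higher late than early in each of the 4 hairpins. This is the ratio of guide to passenger by the names of the rows. For P6, whose 3p arm had the higher mean, the ratio of the more to the less abundant arm ran the other way, from 6.71 (19 h) to 0.766 (33 h). The P5 ratio was 6.58 (19 h), 160 (23 h), 25.7 (26 h) and finally 1007 (33 h, 95% interval 827 to 1239), the widest range of the 120 hairpins at 7.16 (log2). For P7 it ranged from 10 at 21 h to 27.5 at 33 h, and for P8 from 4.3 at 21 h to 12.9 at 32 h. The log2 ranges of P6, P7 and P8 were 3.12, 1.45 and 1.58, number 13, 61 and 54 of the 120. The median range of the 120 hairpins was 1.45, so those of P7 and P8 were ordinary. The slope of the log2 ratio over time was 0.44 per h for P5 (standard error 0.064, adjusted p = 2e-04), 0.20 for P6 (standard error 0.025, adjusted p = 8e-05), 0.086 for P7 (standard error 0.011, adjusted p = 8e-05) and 0.088 for P8 (standard error 0.018, adjusted p = 0.0011), each from a 2-sided permutation test with 100000 resamples of the 16 hours, adjusted over the 16 pairs of arms compared. These ratios do not depend on the scaling of the libraries. Neighbouring hours are not independent, so these p-values and those below are likely too small. With 18 to 29 h only, the slope of P8 was 0.073 per h (permutation test, adjusted p = 0.087).

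**Figure D3:**
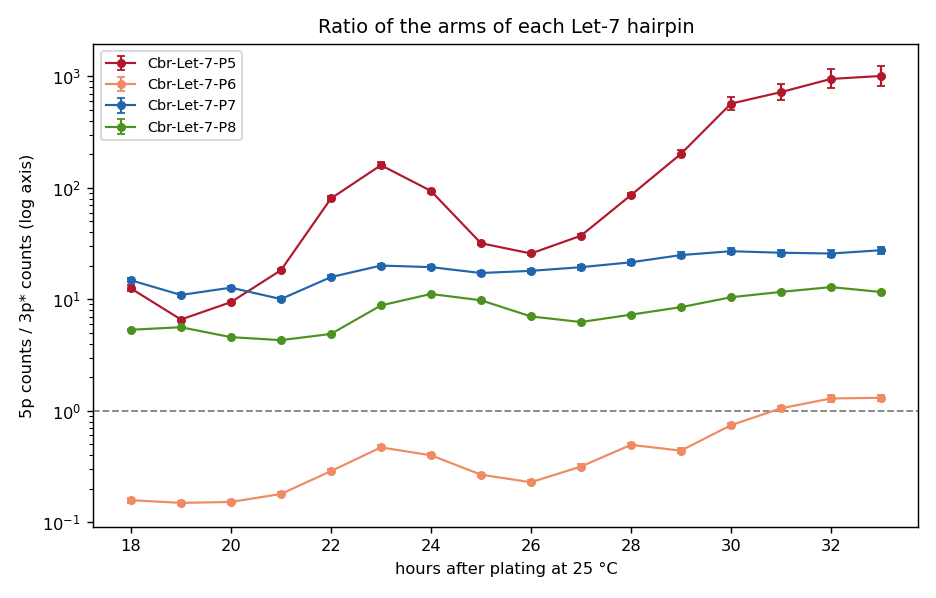
Counts of the 5p arm per count of the 3p arm with the asterisk (y axis, log scale) for the 4 Let-7 hairpins by hours after plating (x axis), with exact 95% intervals from the counts and a dashed line at 1. P6 stays below 1 until 30 h and stands at 1.31 at 33 h, and P5 goes from 6.58 (19 h) to 1007 (33 h), dipping at 26 h.

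Over the whole course the 4 3p arms were called falling and none of the 5p arms was. P7_5p, not called, was 1.36-fold lower at 33 h than at 18 h with the library total. With median-of-ratios size factors the difference was smaller (30693 normalized counts at 18 h and 27721 at 33 h). For P6 it was the arm with the higher mean that fell and the other that rose. Of all 115 tested rows with an asterisk, 46 fell and 32 rose, and of the 196 without it 83 fell and 52 rose. In edgeR's quasi-likelihood test, with a slope per hour beside a cosine-sine pair of 7 h, 2 of the 8 arms rose and 4 fell at an adjusted p under 0.05. These counts are near the shares of all 311 tested arms, of which 27.0% rose and 41.5% fell. Relative to the library total, 84 arms rose and 129 fell, and the median change over 15 h was -0.44 (log2). Median-of-ratios size factors gave 110, 108 and -0.11, and TMM factors 99, 119 and -0.24. Cbr-Let-7-P5_5p rose by 0.12 (log2) per h (standard error 0.041, adjusted p = 0.016) and Cbr-Let-7-P6_5p by 0.042 (standard error 0.0094, adjusted p = 0.0010). The rise of P5 was not called without the 19 h library (0.099 per h, adjusted p = 0.057 from edgeR) or without the cosine-sine pair (0.099, adjusted p = 0.055), and was 0.073 per h without the 18 h library. Cbr-Let-7-P5_3p* fell by 0.26 per h (standard error 0.085, adjusted p = 0.015), Cbr-Let-7-P6_3p* by 0.14 (standard error 0.028, adjusted p = 0.00033), Cbr-Let-7-P7_3p* by 0.095 (standard error 0.013, adjusted p = 1.1e-05) and Cbr-Let-7-P8_3p* by 0.068 (standard error 0.0080, adjusted p = 3.8e-06). With the libraries of 18 to 29 h alone, the fall of P5_3p* was lost (-0.05 per h, adjusted p = 0.55 from edgeR), and the slopes of P6_3p* and P7_3p* were smaller but still called (both -0.057, adjusted p = 0.035 and 0.0082). Those of P5_5p and P6_5p were larger there (0.21 and 0.067 per h, adjusted p = 0.014 and 0.0018). Cbr-Let-7-P8_5p was not called (0.0094 per h, standard error 0.0058, adjusted p = 0.16), but was called rising with TMM factors (0.023, adjusted p = 6.9e-05 from edgeR) and with median-of-ratios size factors (0.032, adjusted p = 5e-06). Cbr-Let-7-P7_5p was not called (-0.013 per h, standard error 0.012, adjusted p = 0.34), and its sign turned with median-of-ratios size factors (0.009, adjusted p = 0.4 from edgeR) and for 18 to 29 h only (0.036, adjusted p = 0.015).

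**Figure D4:**
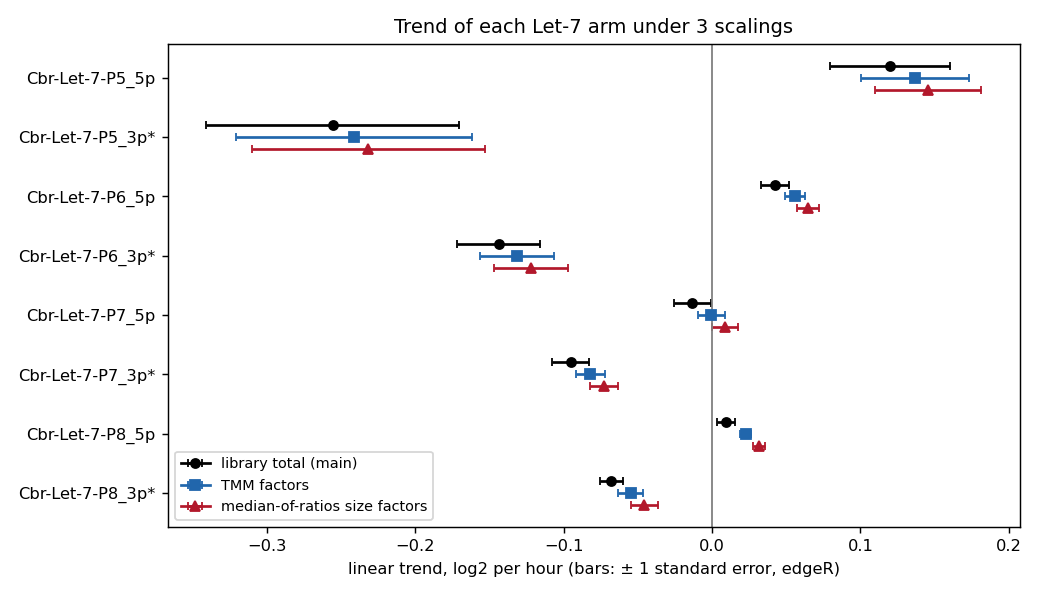
Linear trend (x axis, log2 per hour) of the 8 Let-7 arms in edgeR fits with the library total, TMM factors or median-of-ratios size factors, with bars of 1 standard error on each side. The 4 arms with the asterisk lie below 0 and P5_5p and P6_5p above 0 under each of the 3 scalings, P7_5p turns its sign with median-of-ratios size factors, and P8_5p moves from 0.0094 to 0.032.

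One arm of the family passed the test for rhythm at 7 h. Of all arms tested, 7.40% passed. Cbr-Let-7-P8_3p* had a fitted amplitude of 0.40 on the log2 scale (adjusted p = 0.0025 from edgeR) and lost its call with periods of 6 h (adjusted p = 0.058 from edgeR) and 8 h (0.05). When the trend had a quadratic term, this arm was called at 7 h (adjusted p = 0.00064 from edgeR) and at 6 h (0.028). The quadratic setting at 6 h was added after seeing the data. Cbr-Let-7-P5_3p* had the largest fitted amplitude of the family, 1.47, but did not pass (adjusted p = 0.12 from edgeR, 0.019 from DESeq2). With a quadratic term in the trend the adjusted p of P5_3p* was 0.00018 at 7 h, and that of Cbr-Let-7-P6_3p* was 0.039 (0.29 with the linear trend, amplitude 0.42) and of Cbr-Let-7-P7_3p* 0.021 (0.55, amplitude 0.13), all from edgeR. Of the 5p arms, none was called at 7 h by edgeR with the library total, with adjusted p of 0.31, 0.68, 0.87 and 0.096 for P5, P6, P7 and P8. The amplitudes of P6_5p and P7_5p were 0.076 and 0.057, and that of P8_5p was 0.13. P8_5p was called by DESeq2 on the same library totals (adjusted p = 0.041), and by edgeR after TMM (0.011) or median-of-ratios scaling (0.031).

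The proportions between the guides changed over time. Of the 6 pairs of 5p arms, the log2 ratio changed with time in each by the permutation test over the 16 hours. P5 gained on P7 by 0.14 per h (standard error 0.041, adjusted p = 0.00035) and on P8 by 0.12 (standard error 0.040, adjusted p = 0.0029), and P6 gained on P7 by 0.054 (standard error 0.0085, adjusted p = 0.00016) and on P8 by 0.03 (standard error 0.0065, adjusted p = 0.0011). P5 gained on P6 by 0.09 per h (standard error 0.038, adjusted p = 0.027), which was 0.04 without the 18 h library (adjusted p = 0.2) and 0.072 without the 19 h library (adjusted p = 0.081, permutation tests). The ratio of P7 to P8 changed by -0.024 per h (standard error 0.0098, adjusted p = 0.030), with an adjusted p between 0.052 and 0.1 without the 18, 20, 31, 32 or 33 h library, and with 18 to 29 h alone no change was called (-0.0004 per h, standard error 0.015, adjusted p = 0.98). Of the 6 pairs of passengers, all but that of P7 and P8 (-0.022 per h, standard error 0.017, adjusted p = 0.22) differed, with P5_3p* falling the most, by 0.15, 0.21 and 0.23 per h against P6, P7 and P8 (adjusted p = 0.029, 0.018 and 0.014, permutation tests). The slope of P5_3p* against P6_3p* was -0.126 to -0.133 per h with an adjusted p of 0.05 to 0.084 without the 20, 21, 30, 31, 32 or 33 h library, and that against P7_3p* was -0.182 with 0.052 without the 33 h library. For 18 to 29 h only, none of the passenger pairs differed in this test, at an adjusted p of 0.78 to 0.98 for the 5 pairs that did over the whole course.

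The hourly steps of the guide and the level of its passenger were most closely correlated for P5. Over the 15 hourly steps, the change in the normalized count of P5_5p correlated with the mean passenger level of the same hour with r = 0.91 and rho = 0.87, as a description. The guide went up in 8 of the 15 steps, with a median passenger level of 4962 normalized counts in those and of 562 in the other 7. The values were r = 0.78 and rho = 0.80 for P8, 0.39 and 0.47 for P6, and 0.31 and 0.25 for P7. These points share libraries, and each guide value enters 2 neighbouring steps.

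The linear model of the study, in which the guide gains in proportion to the passenger and is lost at a constant rate, was fitted to each hairpin. For P5 it left a coefficient of determination of 0.99 on the linear scale, number 6 of the 107 hairpins fitted, whose median was 0.74. The fitted loss rate was 0.118 per h, a half-life of 5.86 h, where loss includes dilution by growth and all other small RNAs. For P6 (0.90, half-life 14.5 h) and P8 (0.86, half-life 5.75 h) the fit was number 28 and number 37. The coefficient of determination tends to be higher for a guide that moves further. The highest value was 14.6-fold the lowest for P5_5p and 1.43-fold for P8_5p. The root-mean-square error of the log2 values, as a fold, was 1.057 for P5, 1.052 for P6, 1.098 for P7 and 1.034 for P8. By this error P5 was not the most closely fitted. P7 was fitted less closely (0.57, half-life 4.07 h, number 69), with its largest error at 21 h, where P7_5p stood at 26949 normalized counts between 32317 at 20 h and 32432 at 22 h. For P8 the largest error was at 27 h, where the guide stood at 409108 between 425812 in the library before and 451509 in the one after. No interval was computed for these rates, and they were fitted with the library total only. With median-of-ratios size factors the 33 h values of P5_5p, P6_5p, P7_5p and P8_5p were 72.4%, 92.0%, 74.8% and 92.8% of their highest. With the library total they were 63.9%, 87.8%, 60.9% and 82.2%. P6 was fitted with its 5p arm as the guide although its 3p arm was the more abundant one.

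**Figure D5:**
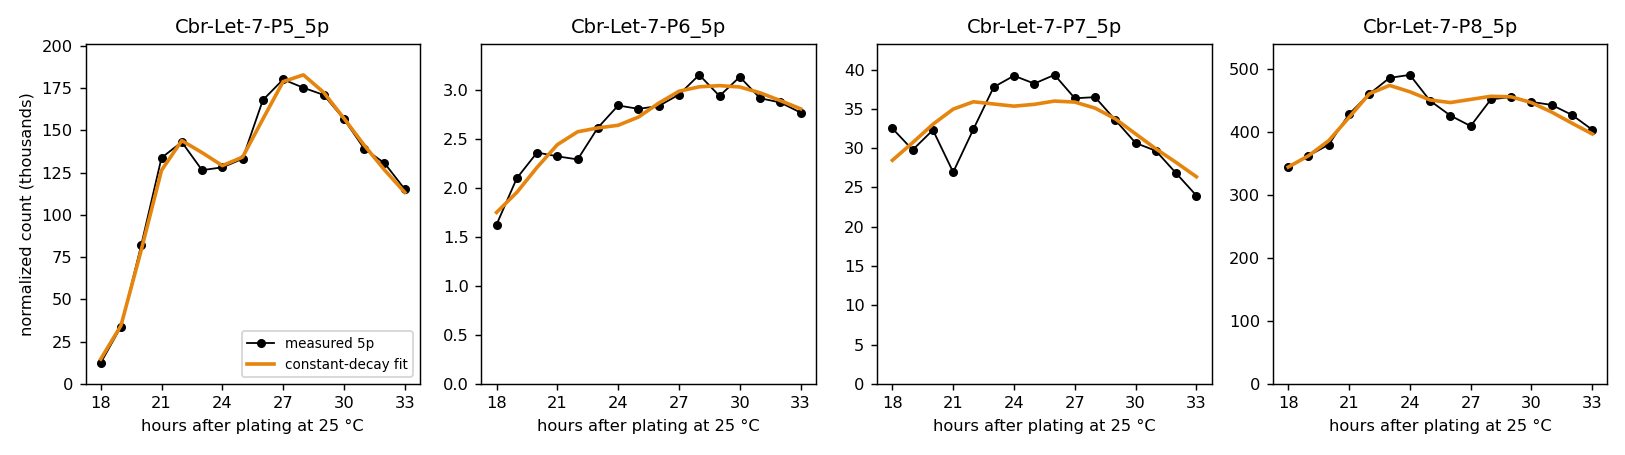
Measured normalized counts (black points, in the unit printed on the y axis) of the 4 Let-7 5p arms by hours after plating and the constant-decay fit from the 3p arm of the same hairpin (orange line), each axis from 0. The fit passes close to both steps of P5, with a coefficient of determination of 0.99, and misses the 21 h value of P7.

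The arms most like each guide over the 16 hours were sought among 236 other arms averaging 100 counts or more, by Pearson r of log2(normalized count + 8), as a description of profiles that share libraries, scaling and time. Closest to P5_5p were Cbr-Mir-2-P11_3p (r = 0.84), Cbr-Bantam-P1a_3p (0.82) and Cbr-Mir-193-P1-v1_3p (0.79), and closest to P6_5p were Cbr-Bantam-P2_3p (0.94), Cbr-Mir-193-P1-v1_3p (0.93) and Cbr-Mir-193-P2-v1_3p (0.91). For P7_5p they were Cbr-Mir-29-P1_5p* (0.88), Cbr-Mir-7584_3p* (0.86) and Cbr-Mir-86_5p (0.79), and for P8_5p Cbr-Mir-67_3p (0.84), Cbr-Mir-9-P15_3p (0.78) and Cbr-Mir-70_5p* (0.73). Within the family, P5_5p and P6_5p had r = 0.89, and P5_3p* and P6_3p* had r = 0.95, whereas guide and passenger of 1 hairpin had r = -0.07 for P5, -0.47 for P6, 0.46 for P7 and -0.22 for P8. The Mir-10 family, which holds lin-4 and its relatives and in other animals also miR-100 and miR-125, miRNAs often encoded beside let-7, had 2 of 8 arms that rose, 4 that fell and 2 called rhythmic, with a median slope of -0.051 per h against -0.041 for the Let-7 arms and -0.029 for all arms. Its passenger Cbr-Mir-10-P3m_3p* had the profile nearest to that of Cbr-Let-7-P5_3p* (r = 0.981). Arms of other families were nearly as close, with 0.975 for Cbr-Mir-36-o25_3p and 0.968 for Cbr-Mir-52-P1_3p*. These arms were singled out after their values were seen.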

How the data were processed

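Small RNA libraries (TruSeq, 50 cycles, single end) were made from total RNA of whole animals. Per the methods of the study, the authors trimmed adapters, aligned reads by QuasR, which calls Bowtie, keeping reads of up to 100 hits, and deposited counts of sense reads whose start lies 3 bp or less from an arm's annotated 5′ end (assembly WS225, MirGeneDB), whereas the submitters' processing notes name ce10. Tool versions were not given in the sources used here. Since reads with several hits were kept, near-identical arms can share reads. The deposited log2 values are the scaled counts plus a pseudocount of 8, recomputed here for 5952 values with a largest difference of 0.0005. Mature sequences were not used here.

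Trend and rhythm were fitted with edgeR 4.0.16 (R 4.3.3) over 311 arms, with Benjamini-Hochberg adjustment and a threshold of 0.05. With no replicates, error was estimated from the residuals of the fit. Slopes of log2 ratios (pseudocount 8) were compared by 100000 permutations of the hours over 16 pairs. Intervals of counts and ratios are exact (Poisson or Clopper-Pearson, 95%). The constant-decay model was integrated with 100 Euler steps per hour and fitted by least squares, with decay rates capped at 10 per h and no lower limit. Rates of 10 of the 107 hairpins fitted, none of them Let-7, came out under 0.001 per h, that is with nearly no loss. Alternatives were TMM and median-of-ratios factors, DESeq2 1.42.0, no filter, other periods and trends, 18 to 29 h only, a pseudocount of 1, and each library left out. Further steps ran in pandas 2.3.3, scipy 1.17.1 and numpy 2.4.6 under Python 3.11.15. The arms named are the 8 members and the 3 arms most like each guide, with any other named as chosen after its value was seen. Members, lists and tests were chosen with earlier results of these data known.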

Additional observations from a re-analysis of the deposited data

How the results depend on the processing

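The course has 1 library per hour, so biological spread at an hour is unknown. No paired analysis was possible because no group has a second library. The 50% hour of P5 and all results with a pseudocount of 1 or no low-count filter kept their calls. Mean levels were kept with median-of-ratios size factors, but the highest hours of P5_5p, P6_5p and P8_5p and the lowest of P7_5p moved. Half-lives were kept in fits on the log2 scale, and were not fitted with another scaling of the libraries.

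The trend of P5_5p was 0.099 per h with no cosine and sine terms (adjusted p = 0.055 from edgeR) and 0.073 to 0.143 with each library left out. That of P5_3p* was -0.05 for 18 to 29 h only, where those of P6_3p* and P7_3p* were both -0.057 and those of P5_5p and P6_5p 0.21 and 0.067. That of P7_5p was 0.009 with median-of-ratios size factors and 0.036 for 18 to 29 h only, and that of P8_5p was 0.023 with TMM factors and 0.032 with median-of-ratios size factors. Adjusted p for the rhythm of P5_3p* was 0.019 with DESeq2, 0.00018 with a quadratic trend, 0.037 for 18 to 29 h only, 0.041 at 6 h with a quadratic trend (added after seeing the data), and 0.031 (without the 33 h library) to 0.26 with each library left out. For P6_3p* it was 0.039 with a quadratic trend and 0.031 for 18 to 29 h only, and for P7_3p* 0.021 with a quadratic trend. For P8_3p* it was 0.058 at 6 h and 0.05 at 8 h, but 0.028 at 6 h with a quadratic trend. For P8_5p it was 0.041 in DESeq2, 0.031 after median-of-ratios scaling, 0.011 after TMM scaling and 0.04 (without the 18 h library) to 0.23 with each library left out.

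For 18 to 29 h only, slopes of the log2 ratios were -0.0004 per h for P7_5p over P8_5p, 0.015 for P5_3p* over P6_3p*, 0.004 for P5_3p* over P7_3p*, -0.013 for P5_3p* over P8_3p*, -0.011 for P6_3p* over P7_3p*, -0.028 for P6_3p* over P8_3p* and 0.073 for P8_5p over P8_3p*. With each library left out they were 0.04 to 0.11 for P5_5p over P6_5p, -0.03 to -0.019 for P7_5p over P8_5p, -0.206 to -0.126 for P5_3p* over P6_3p* and -0.276 to -0.182 for P5_3p* over P7_3p*. Leaving out 1 library changed 14 calls of ratio slopes, 1 of trends and 2 of rhythm. Over all arms, 23 were called rhythmic, which became 55 for a quadratic trend, 39 in DESeq2, 14 without the 22 h library, 12 for a period of 8 h and 3 for one of 6 h, and 129 falling became 72 for 18 to 29 h only. The causes were not tested.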
